A study of Mus musculus with 12 samples.

Results

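The results concern 9 genes, Ptprc and 8 genes whose proteins regulate its splicing, in bone marrow cells from mice with MLL-ENL leukemia and from control mice. The members were chosen by gene identity, as the rows of both deposited count tables that carry the NCBI gene identifiers of Ptprc, Hnrnpll, Hnrnpl, Ptbp1, Srsf1, Srsf3, Srsf7, Celf2 and Sfpq, and all 9 were found among the 24028 genes of each table. Each row holds all reads of a gene, so the counts show how much RNA of each gene was present and not which isoform it was. In RefSeq annotation of GRCm38.p6, Ptprc (NCBI gene 19264) spans chr1:138062859-138175756, Hnrnpll (72692) chr17:80029487-80062268, Hnrnpl (15388) chr7:28808546-28822268 and Ptbp1 (19205) chr10:79854432-79864435. Srsf1 (110809) spans chr11:88046499-88053757, Srsf3 (20383) chr17:29032660-29043372, Srsf7 (225027) chr17:80200080-80207369, Celf2 (14007) chr2:6539694-7396341 and Sfpq (71514) chr4:127020716-127051101.

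All mice were C57BL/6. The first table compares total leukemic bone marrow of iMLL-ENL mice, knock-in mice carrying a doxycycline-inducible MLL-ENL fusion and kept on doxycycline until acute leukemia, with wild-type (wt) LSK cells, which are lineage-depleted marrow of control mice sorted by Sca-1 and c-Kit. The second table compares leukemic marrow cells of iMLL-ENL mice sorted for high surface B220 (B220 HIGH) with those sorted for low surface B220 (B220 LOW). Each of the 4 groups has 3 libraries, numbered 1 to 3. The labels give 3 animals per genotype without tying libraries to animals, do not say whether the control mice received doxycycline, and give no ages, so the p-values measure only the spread between libraries, which may be technical. The promoter behind the knock-in is not given either. Total marrow is a mixed population while LSK is a sorted fraction. In such bulk samples fewer cells of a type and less RNA per cell cannot be told apart.

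Ptprc encodes CD45, a receptor protein tyrosine phosphatase on the surface of nucleated blood cells that switches Src family kinases on or off by removing phosphate groups. Exons 4, 5 and 6, also called A, B and C, are spliced in or out as cassettes and encode a heavily glycosylated stretch of the extracellular part. B220 is the form with these exons included, best known from B cells, and the short form without them is best known from memory T cells. hnRNPLL and hnRNP L hold the variable exons back from the mature RNA, PTB (Ptbp1) and PSF (Sfpq) also act as repressors in human T cells, SR proteins such as Srsf1, Srsf3 and Srsf7 bind exons and often favour their inclusion, and Celf2 is an RNA-binding protein known for signal-dependent splicing in T cells.

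The variable exons are shown because they are the stretch of Ptprc RNA by which B220 differs from the short forms of CD45. The sequences were read from the transcript Ptprc-207 of GENCODE M21 on build GRCm38 and lie on the minus strand of chromosome 1, at chr1:138122456-138122584 for exon A, chr1:138120020-138120166 for exon B and chr1:138117754-138117894 for exon C. Capitals mark ACAC, a short CA-repeat motif of the kind that hnRNP L proteins bind.
Exon A: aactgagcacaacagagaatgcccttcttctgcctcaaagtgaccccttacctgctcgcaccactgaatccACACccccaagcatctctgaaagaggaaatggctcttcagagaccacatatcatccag
Exon B: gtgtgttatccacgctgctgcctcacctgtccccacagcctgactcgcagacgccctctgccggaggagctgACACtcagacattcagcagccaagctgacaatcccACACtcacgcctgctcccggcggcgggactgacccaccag
Exon C: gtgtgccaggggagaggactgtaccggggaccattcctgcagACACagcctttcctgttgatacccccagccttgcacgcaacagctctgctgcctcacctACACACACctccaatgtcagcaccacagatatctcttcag

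Exons A, B and C are 129, 147 and 141 bases long, and each length is a multiple of 3, so any of them can be left out without shifting the reading frame. Together they hold 417 bases or 139 codons, which is 8.22% of the 5074 bases of the transcript that carries all of them. In the sequences as shown, which read as the RNA does, ACAC occurs 1 time in exon A, 2 times in exon B and 4 times in exon C. Overlapping matches are counted. Of annotated exons of exactly the same length, 35.3% hold ACAC at the length of exon A, 41.8% at that of exon B and 37.1% at that of exon C. GTGT, which is ACAC read on the opposite strand, occurred 0, 2 and 1 times in the same sequences of exons A, B and C. TCTT, a pyrimidine motif of the kind that PTB binds, occurred 2, 0 and 1 times, against shares of 41.2%, 43.6% and 41.9% of same-length exons, and its reverse complement AAGA 1, 0 and 0 times. These matches describe letters in the exons and are not measured binding sites.

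**Figure D1:**
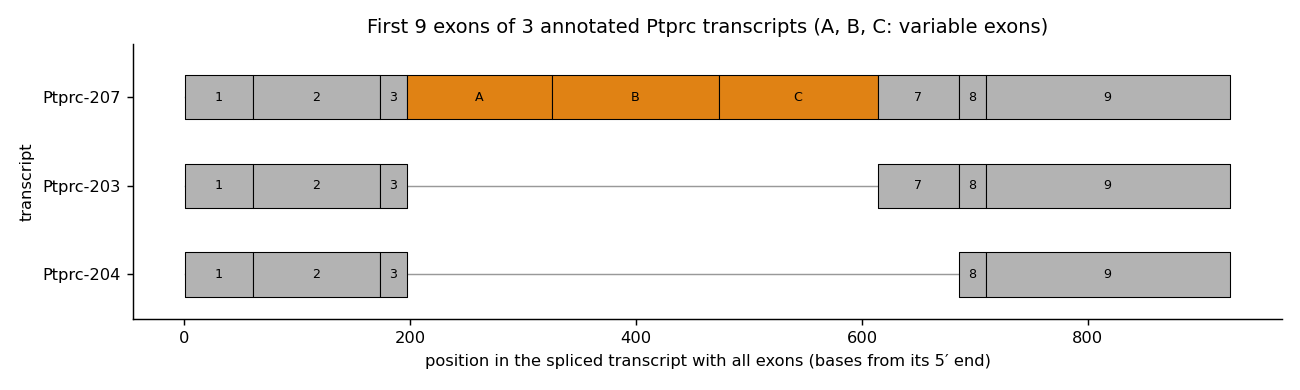
First 9 exons of 3 annotated full-length Ptprc transcripts, with the variable exons A, B and C in orange and other exons in grey. All 3 are drawn with the exon bounds of Ptprc-207, to scale in bases of that spliced transcript. Ptprc-207 carries A, B and C, Ptprc-203 lacks them but holds exon 7, and Ptprc-204 also lacks exon 7. The other exons of Ptprc-203 and Ptprc-204 were not compared with those drawn.

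Among 5 protein-coding Ptprc transcripts in the same annotation, Ptprc-207 held exons A, B and C, Ptprc-203 and Ptprc-204 held none of them, and 2 transcripts without an annotated end held exon B alone or exons A and C. A count over the whole gene changes little with this choice. Leaving exons A, B and C out of every copy of Ptprc-207, with its 5074 bases, would by length alone move the log2 count by -0.12. That step is smaller than every standard error given below for Ptprc.

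The libraries held between 10921521 and 22706882 counts. CPM below are counts per 1000000 counts of the library. Kit, the c-Kit receptor, was at 1049.9 to 1349.6 CPM in wt LSK libraries, and Itgam, which encodes the myeloid integrin CD11b, was at 744 to 1055 CPM in iMLL-ENL total libraries. Pax5, the B lineage master regulator, was at 0, 0.0997 and 0.202 CPM in B220 HIGH and at 0 in the 3 B220 LOW libraries. Cd22, an inhibitory receptor of B cells, was at 2.20, 4.19 and 6.83 CPM in B220 HIGH, against 0.0655, 0.223 and 0.0601 CPM, or 1, 3 and 1 counts, in B220 LOW. The summed level of 13 B lineage markers was 16.2 to 119 CPM in B220 HIGH and 15.6 to 17.8 CPM in B220 LOW, and Pax5, Blnk, Igll1 and Rag1 were at 0 in all B220 LOW libraries. Library 2 stood apart in each of the 4 groups. Its sum of 9 T lineage markers was 83.0 CPM in iMLL-ENL total, 134 in wt LSK, 90.5 in B220 HIGH and 64.3 in B220 LOW. The other libraries of these groups held at most 39.5, 77.3, 37.9 and 34.0 CPM. B220 HIGH library 2 held 119 CPM of the B lineage markers, 61.3 CPM of 7 NK markers and 16423 CPM of 13 myeloid markers, against at most 25.1, 1.96 and 8642 CPM in the other sorted libraries. The wt LSK library 2 held 417 CPM of B lineage markers, against 82.1 and 101 CPM in the other wt LSK libraries. It also held 166 CPM of NK and 999 CPM of plasmacytoid dendritic markers, against at most 75.9 and 509 CPM in those libraries. The iMLL-ENL total library 2 held 25290.4 CPM of myeloid and 26.1 CPM of NK markers, against at most 14475.5 and 10.9 CPM in the others of its group.

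Per kilobase of gene width, the scale on which levels of different genes can be compared, the SR protein genes and Sfpq were the most abundant members and Hnrnpll the least or nearly so. Ptprc averaged 96.9 ± 15.6 CPM per kb in iMLL-ENL total, 84.9 ± 7.50 in wt LSK, 80.2 ± 4.80 in B220 HIGH and 60.9 ± 26.3 in B220 LOW (SD, n = 3 each). Hnrnpll averaged 46.2 ± 5.70 CPM per kb in iMLL-ENL total, 34.6 ± 2.48 in wt LSK, 22.2 ± 11.5 in B220 HIGH and 36.9 ± 3.83 in B220 LOW. Its relative Hnrnpl, the broadly expressed member of the pair, was at 44.0 ± 13.1 and 32.7 ± 6.65 CPM per kb in iMLL-ENL total and wt LSK, where it lay near Hnrnpll, and at 82.6 ± 2.62 and 90.8 ± 29.7 in B220 HIGH and B220 LOW, where it lay above Hnrnpll. Srsf7 reached the highest group mean of all members, 248 ± 13.2 CPM per kb in wt LSK, and Srsf1 varied least over the 12 libraries, with a coefficient of variation of 14.1% in CPM. The same coefficient was 23.8% for Ptprc, 30.6% for Hnrnpll and 47.0% for Hnrnpl.

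**Figure D2:**
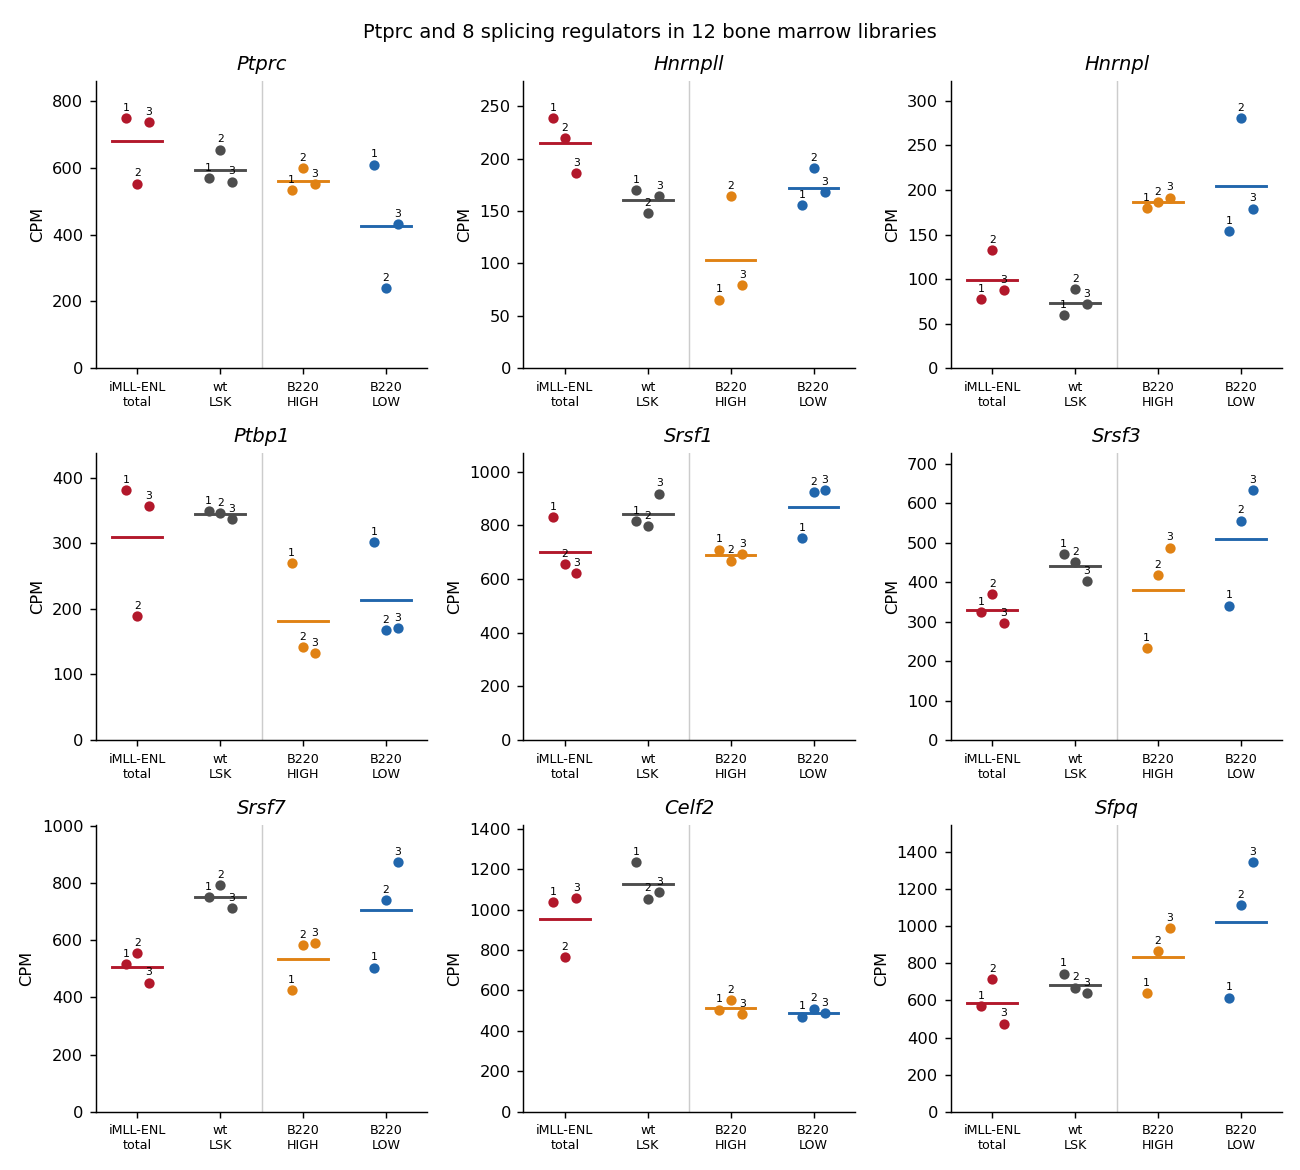
CPM of the 9 members in every library (points, with replicate numbers) and the group mean (line), with a linear axis from 0 in each panel and a grey line between the 2 deposited tables. Hnrnpll libraries of iMLL-ENL total lie above those of wt LSK, while 2 of 3 B220 HIGH libraries lie below 80 CPM.

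The order of the 4 groups differed from member to member, and the 2 tables may differ in handling, so an order across them is only a description. For 7 of the 9 members, groups next to each other in the order of their means overlapped. Hnrnpl and Celf2 were the exceptions, and for both the gap fell between the tables. Hnrnpl was at 154 to 280.3 CPM in the 6 sorted libraries and at 59.2 to 133 CPM in the 6 libraries of the other table. Celf2 was at 470.3 to 552 CPM in the sorted libraries and at 766 to 1235 CPM in the others. Of 9477 genes with a mean of at least 10 CPM, 17.0% separated the 2 tables in this way.

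The first comparison sets iMLL-ENL total against wt LSK. Of the 9 members, only Hnrnpll passed the test, close to its threshold, and it was higher in iMLL-ENL total. Ptprc and the other 7 regulators did not pass, which does not show that they were unchanged. The test was edgeR's quasi-likelihood test with TMM scaling (a scaling that trims extreme genes), and a gene was called at a Benjamini-Hochberg adjusted p under 0.05 over all 13811 genes tested. Of those genes 30.6% were called, 15.5% higher and 15.1% lower, against 11.1% of the members. The median log2 fold change was -0.08 over the members and 0.05 over all genes tested.

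Ptprc was at 749, 554 and 737 CPM in iMLL-ENL total libraries 1 to 3, against 571, 656 and 559 CPM in wt LSK. Its groups overlapped, since iMLL-ENL total library 2 was below every wt LSK library. The log2 fold change was 0.35 ± 0.19 (SE, 95% interval -0.08 to 0.78) with an adjusted p of 0.202. The interval holds neither a doubling nor a halving of Ptprc RNA in leukemic marrow.

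Hnrnpll, the regulator most closely tied to the loss of variable exons in activated lymphocytes, was at 238, 219.6 and 186 CPM in iMLL-ENL total, against 170.1, 148 and 164 CPM in wt LSK. Every iMLL-ENL total library was above every wt LSK library. The log2 fold change was 0.56 ± 0.18 (95% interval 0.16 to 0.97) with an adjusted p of 0.041. The call was close to the threshold: it held under 3 of 13 alternative settings, and the adjusted p ranged over them between 0.0355 and 0.584. It was lost on leaving out any 1 of the wt LSK libraries, or iMLL-ENL total library 1 or 2. Without wt LSK library 2, which stood apart, the log2 fold change was 0.43 with an adjusted p of 0.175. DESeq2 gave 0.51 with an adjusted p of 0.0659. The annotated span of Hnrnpll overlaps 4933407O12Rik, Gpx4-ps1 and Gm22215. None of them has a row in the counts, so reads in the shared stretches cannot be assigned.

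Hnrnpl was at 77.6, 133 and 87.2 CPM in iMLL-ENL total, against 59.2, 89.1 and 72.3 CPM in wt LSK. The groups overlapped, and the log2 fold change of 0.59 ± 0.25 (95% interval 0.02 to 1.17) had an adjusted p of 0.111. It was the sole member whose interval reached beyond a doubling or halving, and the intervals of the other 8 lay within that range. Ptbp1 was at 381, 189 and 357 CPM in iMLL-ENL total, against 349, 346 and 337 CPM in wt LSK, and library 2 alone was low. Its log2 fold change was -0.00 ± 0.26 with an adjusted p of 0.995. The annotated span of Ptbp1 overlaps Plppr3, E130317F20Rik and Mir6910. The libraries were made with an unstranded kit, so reads in the shared stretches cannot be assigned.

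The 3 SR protein genes among the members pointed lower in leukemic marrow without passing the test. Srsf7 was at 517, 556 and 452 CPM in iMLL-ENL total, against 752, 793 and 713 CPM in wt LSK, with no overlap. Its log2 fold change was -0.41 ± 0.17 (95% interval -0.80 to -0.03) with an adjusted p of 0.0963, and it passed only when libraries were scaled by their totals alone, at -0.57 and 0.0331. Srsf3 was at 324, 371 and 297 CPM in iMLL-ENL total, against 472, 452 and 402 CPM in wt LSK, again with no overlap, and its log2 fold change was -0.27 ± 0.18 with an adjusted p of 0.285. Srsf1, the best studied SR protein, was at 830.0, 657 and 621 CPM in iMLL-ENL total, against 816, 796 and 919 CPM in wt LSK. Its libraries overlapped, with a log2 fold change of -0.11 ± 0.18 and an adjusted p of 0.674. Hnrnpll, Srsf3 and Srsf7 are 3 of 9 members whose groups did not overlap, while 48.5% of all genes tested had this property. Scaling by totals moved the median log2 fold change of all genes from 0.05 to -0.10, and relative to that median the SR protein values changed little.

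Celf2 and Sfpq had the smallest differences after Ptbp1. Celf2 was at 1038, 766 and 1057 CPM in iMLL-ENL total, against 1235, 1054 and 1085 CPM in wt LSK, with a log2 fold change of -0.09 ± 0.21 (95% interval -0.56 to 0.39) and an adjusted p of 0.783. Sfpq was at 571, 716 and 475 CPM in iMLL-ENL total, against 745, 669 and 641 CPM in wt LSK, with a log2 fold change of -0.08 ± 0.20 (95% interval -0.54 to 0.39) and an adjusted p of 0.811. Both genes had overlapping groups, and the end of Sfpq shares its span with Zmym1. The span of Celf2 holds 5031426D15Rik, at no more than 0.444 CPM, and Gm24340, which has no row in the counts.

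The groups of this comparison also differed in cell makeup. All 10 stem cell and LSK markers fell in iMLL-ENL total, 12 of 13 myeloid markers rose, and 5 of 7 erythroid and 5 of 12 B lineage markers tested fell. The summed stem cell markers were at 288 to 522 CPM in iMLL-ENL total, against 3740 to 4269 CPM in wt LSK, and the summed myeloid markers at 7844 to 25290.4 CPM, against 1495 to 2447 CPM. Hoxb5 was at 0 in all iMLL-ENL total libraries. What part the makeup has in the Hnrnpll difference was not tested.

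**Figure D3:**
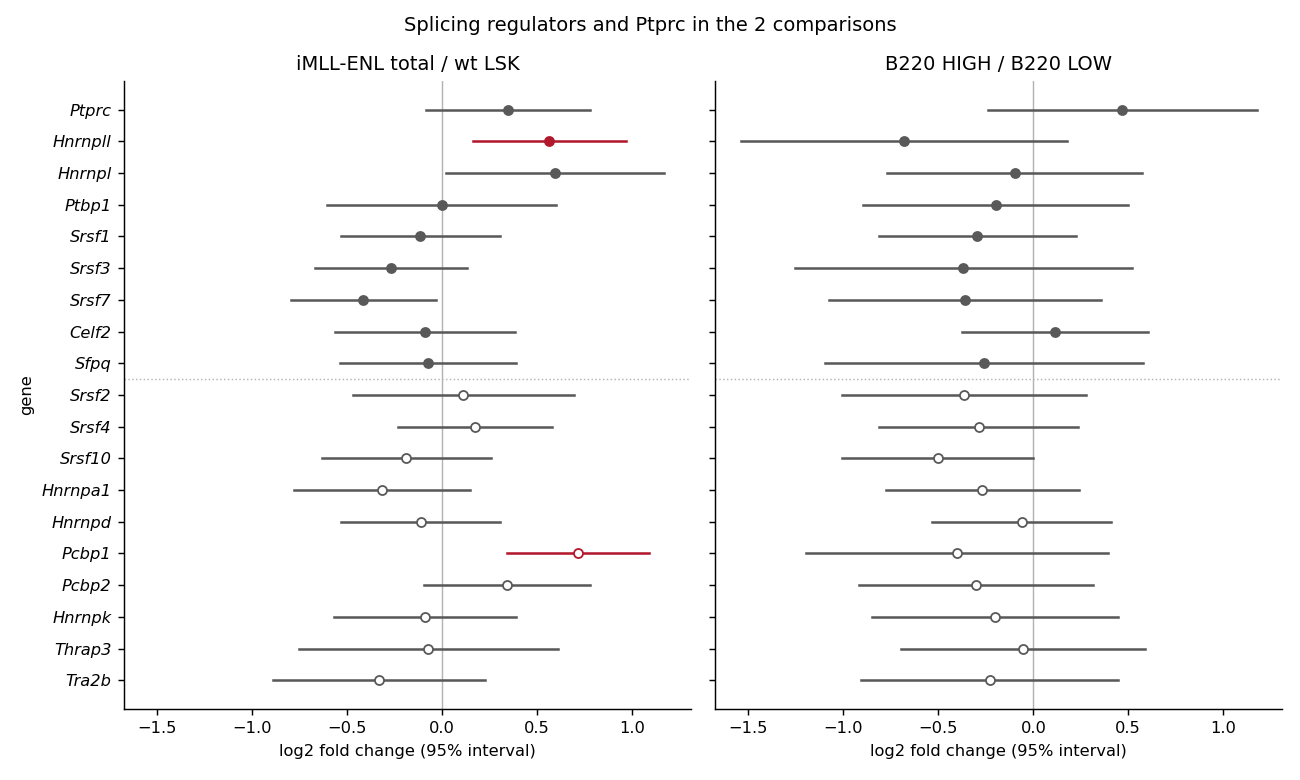
Log2 fold change (horizontal axis) with its 95% interval for the 9 members (filled points) and 10 other factors reported on CD45 exons (open points), for iMLL-ENL total over wt LSK and for B220 HIGH over B220 LOW. Red marks genes called at an adjusted p under 0.05, which are Hnrnpll and Pcbp1 in the first comparison and no gene in the second.

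Among 10 other factors reported to act on CD45 exons, 1 rose in iMLL-ENL total, none fell and 9 were not called. Pcbp1, an RNA-binding protein of the poly(C) family, was at 168, 190.4 and 175 CPM in iMLL-ENL total, against 121, 125 and 116 CPM in wt LSK, with a log2 fold change of 0.71 ± 0.16 and an adjusted p of 0.0119. Its groups did not overlap, and the call held under 9 of 13 alternatives; it was lost on leaving out any 1 of the wt LSK libraries and with a fold threshold of 1.5. The log2 fold changes of Srsf2, Srsf4, Srsf10, Hnrnpa1, Hnrnpd, Pcbp2, Hnrnpk, Thrap3 and Tra2b lay between -0.33 and 0.34. The median over the list was -0.08.

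In the wider splicing machinery 9.09% of SR protein genes, 13.0% of hnRNP genes and 4.76% of core spliceosome genes were called, against 30.6% of all genes tested. Of 11 SR proteins, Srsf9 rose, to 31.0, 62.4 and 38.0 CPM in iMLL-ENL total, against 17.0, 23.4 and 20.0 CPM in wt LSK (log2 fold change 1.28 ± 0.31, adjusted p 0.0139), and none fell. Srsf9 overlaps Gatc, and its call was lost without wt LSK library 1 or library 3. The largest difference of the list was in the scarce Srsf12, at 0, 0.0556 and 0.308 CPM in iMLL-ENL total, against 1.66, 1.65 and 0.765 CPM in wt LSK (log2 fold change -3.22 ± 1.08, adjusted p 0.054). Of the 11 SR protein genes 7 had groups that did not overlap, against 48.5% of all genes tested. None of 11 SR protein kinases and partners was called by edgeR (1 at an unadjusted p under 0.05), DESeq2 or limma-voom, and none of 7 Sfpq partners and regulators, Sfpq included, by edgeR or limma-voom (2 at an unadjusted p under 0.05, 1 called by DESeq2). Of 23 hnRNP genes 2 rose, Hnrnpll and Pcbp1, and 1 fell, Hnrnpdl, which was at 489, 417 and 469.7 CPM in iMLL-ENL total, against 756, 727 and 736 CPM in wt LSK (log2 fold change -0.54 ± 0.17, adjusted p 0.0417, kept under 6 of 13 alternatives). Of 21 core spliceosome genes only Snrpb, a protein of the snRNP core, rose, by 0.83 ± 0.25 on the log2 scale with an adjusted p of 0.0352, kept under 6 of 13 alternatives.

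Among 19 tested splicing factor genes of the PTB, CELF, MBNL and related families, 2 rose and 2 fell, or 21.1% against 30.6% of all genes. Tia1, an exon-activating RNA-binding protein, was at 171, 116 and 110.1 CPM in iMLL-ENL total, against 333, 329 and 379 CPM in wt LSK, with a log2 fold change of -1.24 ± 0.21 and an adjusted p of 0.00277. Rbfox2, best known for exon choice in muscle and neurons, was at 0.602, 0 and 0.352 CPM in iMLL-ENL total, against 12.6, 8.34 and 12.8 CPM in wt LSK, with an adjusted p of 0.00358. Every wt LSK library was above every iMLL-ENL total library for both genes. Celf4, a relative of Celf2 best known from neurons, was at 14.7, 8.55 and 27.3 CPM in iMLL-ENL total, against 1.61, 2.85 and 2.14 CPM in wt LSK, with a log2 fold change of 3.11 ± 0.51 and an adjusted p of 0.00267. Mbnl1, a splicing factor that promotes adult isoforms, was the most abundant of the 4 at 4203, 4303 and 2625 CPM in iMLL-ENL total, against 2397, 1894 and 2258 CPM in wt LSK. Its log2 fold change was 0.91 ± 0.24 with an adjusted p of 0.0233, and the call held under 8 of 13 alternatives; it was lost without any 1 of the wt LSK libraries, without iMLL-ENL total library 1 and with a fold threshold of 1.5. The calls of Tia1, Rbfox2 and Celf4 held under all 13 alternatives.

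Among genes that act with CD45, the kinase genes Lyn and Fgr and 2 galectins were higher in iMLL-ENL total, and Fyn, Lck, Blk and Yes1 were lower. Of 20 genes for substrates, partners and ligands of CD45, 5 rose and 5 fell, so 50.0% were called, against 30.6% of all genes tested, and the median log2 fold change was -0.43, against 0.05 over all genes. Lyn and Fgr encode Src family kinases typical of myeloid cells, a family that CD45 activates by removing an inhibitory phosphate. Lyn was at 288, 526 and 567 CPM in iMLL-ENL total, against 134, 179 and 128 CPM in wt LSK (log2 fold change 1.81 ± 0.29, adjusted p 0.00222). Fgr was at 35.8, 85.4 and 121 CPM in iMLL-ENL total, against 1.72, 14.5 and 2.30 CPM in wt LSK (log2 fold change 3.92 ± 0.87, adjusted p 0.0118). Neither kinase gene had overlapping groups, and the Fgr call was lost without iMLL-ENL total library 2 (and with no filter on low counts).

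Fyn, a kinase of T cells and many other cell types, was at 3.24, 10.6 and 4.62 CPM in iMLL-ENL total, against 84.1, 99.7 and 85.0 CPM in wt LSK, with a log2 fold change of -3.71 ± 0.44 and an adjusted p of 0.00054. Lck, the T cell kinase on which CD45 was best characterised, was at 0.973, 2.28 and 0.925 CPM in iMLL-ENL total, against 10.3, 25.9 and 13.3 CPM in wt LSK, with a log2 fold change of -3.40 ± 0.54 and an adjusted p of 0.0023. Yes1 fell by 2.53 on the log2 scale with an adjusted p of 0.00984. Blk, a B lineage kinase, had 3 counts in the 3 iMLL-ENL total libraries together and 172 counts in wt LSK, a wt LSK to iMLL-ENL total ratio of 63.3 (exact 95% interval for counting error alone 21.3 to 309.8), with an adjusted p of 0.00937.

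**Figure D4:**
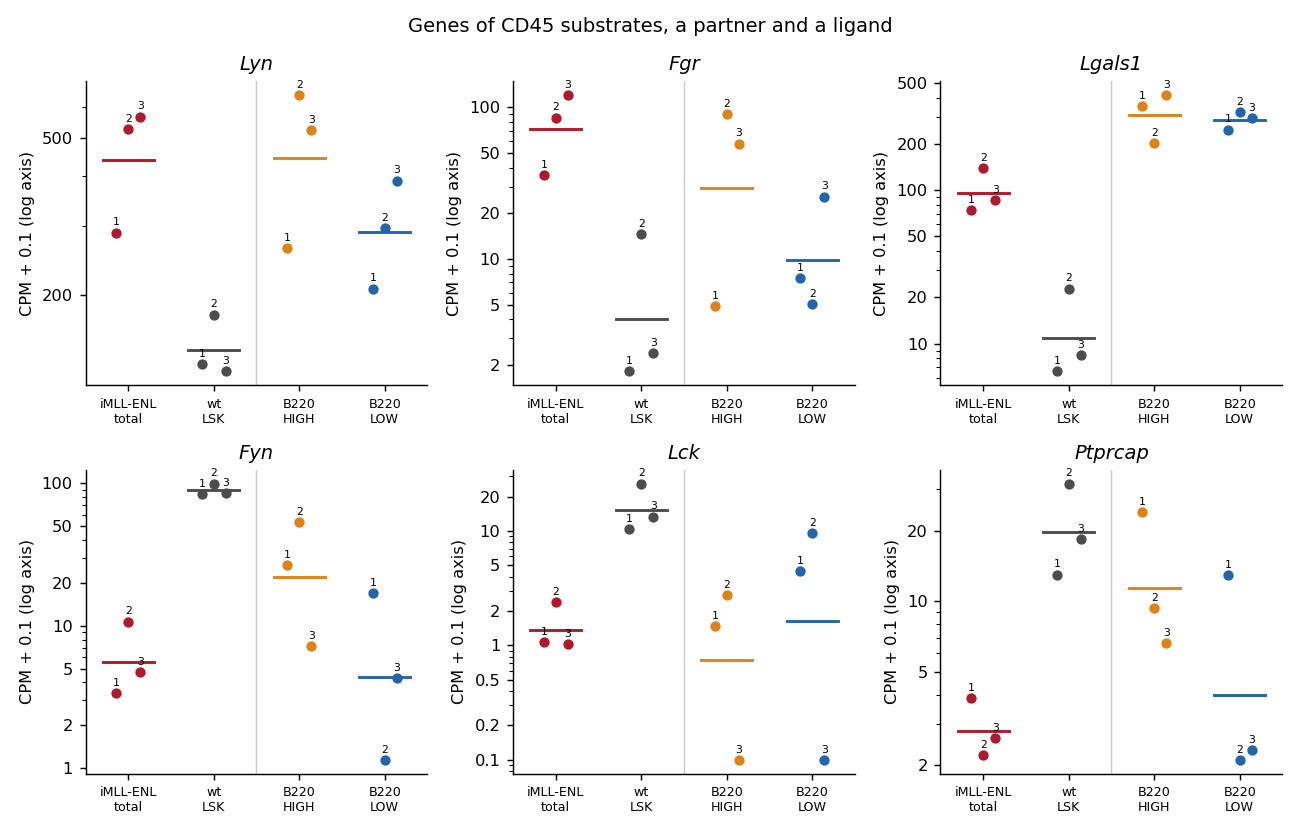
CPM plus 0.1 on a log axis for 4 kinase genes, Ptprcap and Lgals1 in every library (points with replicate numbers), with the geometric mean of each group as a line. Lyn, Fgr and Lgals1 are higher in iMLL-ENL total than in wt LSK, and Fyn, Lck and Ptprcap lower, with no overlap, whereas B220 HIGH and B220 LOW overlap in all 6 panels.

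Ptprcap, which encodes a transmembrane protein bound to CD45, was at 3.75, 2.11 and 2.51 CPM in iMLL-ENL total, against 12.9, 31.6 and 18.3 CPM in wt LSK (log2 fold change -2.73 ± 0.43, adjusted p 0.00209). The galectin genes Lgals1 and Lgals3, whose products bind sugars on CD45, rose by 3.18 ± 0.49 and 5.53 ± 0.50 on the log2 scale, with adjusted p of 0.00196 and 0.000161. Csk, the kinase that opposes CD45, was at 55.9, 38.1 and 57.4 CPM in iMLL-ENL total, against 49.3, 63.6 and 72.9 CPM in wt LSK, and did not pass the test (adjusted p 0.709). Apart from Fgr, the called genes of this list kept their calls under all 13 alternatives. Myeloid markers rose and stem cell and B lineage markers fell in the same libraries, as given above, and their part in these values was not tested.

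Of 17 other protein tyrosine phosphatase genes tested, 4 rose (Ptpn6, Ptpn1, Ptpro and Ptprm) and 3 fell (Ptprb, Ptprk and Ptprf), so 41.2% were called, against 30.6% of all genes tested. Ptpn6, which encodes the inhibitory blood cell phosphatase SHP-1, was at 166, 198 and 266 CPM in iMLL-ENL total, against 72.5, 97.0 and 81.2 CPM in wt LSK, with a log2 fold change of 1.49 ± 0.23 and an adjusted p of 0.00196. Ptpn1, which encodes PTP1B, was at 109, 88.4 and 117 CPM in iMLL-ENL total, against 53.7, 56.9 and 50.5 CPM in wt LSK, with a log2 fold change of 1.12 ± 0.19 and an adjusted p of 0.0033. Neither gene had overlapping groups. Ptprb, an endothelial receptor phosphatase, had 2 counts in iMLL-ENL total and 265 in wt LSK, a wt LSK to iMLL-ENL total ratio of 146 (exact 95% interval for counting error alone 40.1 to 1213, adjusted p 0.000957). Ptprk had 1 count in iMLL-ENL total and 257 in wt LSK, a ratio of 284 (50.4 to 11243, again for counting error alone, adjusted p 0.00126).

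The second comparison is between B220 HIGH and B220 LOW leukemic cells, which were separated by a form of CD45 on their surface. No member passed the test. Hnrnpll, Ptbp1 and the 3 SR protein genes, or 5 of 9 members, were lower in B220 HIGH within each numbered pair. The same held for 23.5% of 9351 genes with a mean of at least 10 CPM. Over all genes, edgeR called 0 of 12564 genes, or 0% (880 at an unadjusted p under 0.05), limma-voom called 0 and DESeq2 302, none of them a member. The numbered B220 HIGH and B220 LOW libraries deviated together, and a fit that includes that number as a replicate block called 79 genes or 0.629%, again no member. The median log2 fold change over the members was -0.26, against -0.03 over all genes. Direction and size are therefore given with their intervals, and a p above the threshold does not show that the groups are alike.

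The sorted groups also differed in cell type markers. With the replicate block, edgeR called 3 of 13 myeloid markers lower in B220 HIGH, all of them genes of granule proteins, and 2 higher. Mpo, Elane and Ctsg fell by 2.53, 3.56 and 1.91 on the log2 scale, with adjusted p of 0.000701, 0.00235 and 0.0442. Of the 2 higher ones, Adgre1, which encodes the macrophage marker F4/80, was at 219.6, 180.2 and 188 CPM in B220 HIGH, against 78.0, 21.9 and 17.6 CPM in B220 LOW (log2 fold change with the block 2.70, adjusted p 0.0313). The same test called none of these 5 without the block. The summed stem cell markers were at 442 to 515 CPM in B220 HIGH, against 187 to 309 CPM in B220 LOW, without overlap. Of the 8 tested, 7 had a positive log2 fold change (median 1.77, none called), against 6038 of 12564 genes tested. Of 8 plasmacytoid dendritic markers tested, 7 were positive and 1 negative (median 1.52, none called). Their sums overlapped, at 243 to 731 CPM in B220 HIGH and 199 to 364 CPM in B220 LOW. Summed myeloid markers spanned 1229 to 16423 CPM in B220 HIGH and 2655 to 8642 CPM in B220 LOW. The part of these differences in the values below was not tested.

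Ptprc was at 534, 599.8 and 553 CPM in B220 HIGH, against 610.3, 241 and 431 CPM in B220 LOW. The B220 HIGH libraries were close together, and B220 LOW library 1 was above all of them while B220 LOW library 2 was lowest of the 12 libraries. The B220 HIGH to B220 LOW ratio was 0.876, 2.49 and 1.28 in the numbered pairs. The log2 fold change was 0.47 ± 0.31 (95% interval -0.24 to 1.18), and without B220 LOW library 2 it was 0.20. The sort itself used a product of this gene, so the difference is given as a description.

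Hnrnpll pointed the other way. It was at 65.4, 164 and 79.2 CPM in B220 HIGH, against 156, 191 and 168 CPM in B220 LOW. B220 HIGH libraries 1 and 3 were below every B220 LOW library, and B220 HIGH library 2, the library with B lineage, NK and myeloid marker reads above the rest, was within their range. The log2 fold change was -0.68 ± 0.38 (95% interval -1.54 to 0.18) with an adjusted p of 0.802. With the replicate block it was -0.81 ± 0.24 with an adjusted p of 0.225 (unadjusted 0.00892), and without B220 HIGH library 2 it was -1.18 with an adjusted p of 0.621. Hnrnpll was lower in B220 HIGH in all 3 numbered pairs, at 0.420, 0.860 and 0.471 times the B220 LOW level.

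**Figure D5:**
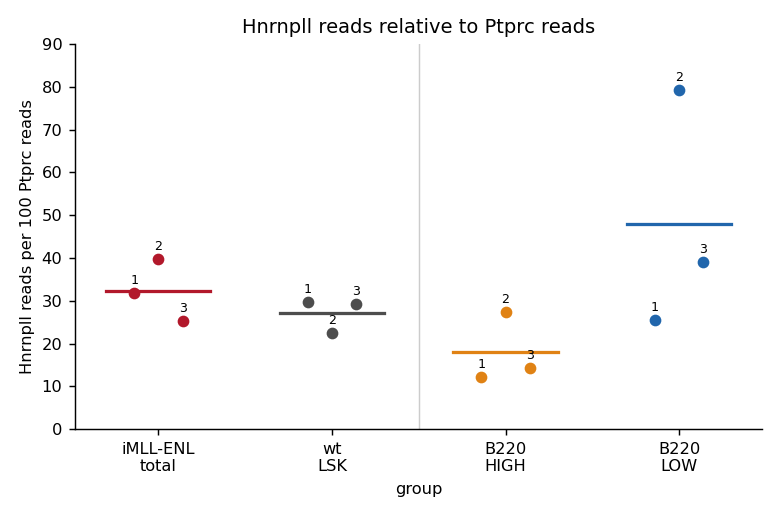
Hnrnpll reads per 100 Ptprc reads in every library (points with replicate numbers) and the group mean (line), on a linear axis from 0. B220 HIGH libraries range from 12.2 to 27.4 and B220 LOW libraries from 25.5 to 79.2.

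Set against the reads of its target, Hnrnpll had 12.2, 27.4 and 14.3 reads per 100 Ptprc reads in B220 HIGH, against 25.5, 79.2 and 39.0 in B220 LOW. In each numbered pair the B220 HIGH value was below its B220 LOW partner, and the groups overlapped, since B220 HIGH library 2 exceeded B220 LOW library 1. The same ratio was 31.8, 39.7 and 25.2 in iMLL-ENL total and 29.8, 22.5 and 29.3 in wt LSK, which overlapped. The ratio combines both directions given above and adds no independent test.

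Like Hnrnpll, the repressor genes Hnrnpl, Ptbp1 and Sfpq had overlapping groups and did not pass the test. Ptbp1 was lower in B220 HIGH in all 3 numbered pairs. Hnrnpl was at 179.7, 187 and 191 CPM in B220 HIGH, against 154, 280.3 and 179 CPM in B220 LOW, with a log2 fold change of -0.10 ± 0.30 (95% interval -0.77 to 0.57, adjusted p 0.98). Ptbp1 was at 269, 141 and 133 CPM in B220 HIGH, against 302, 168 and 170.0 CPM in B220 LOW, with a log2 fold change of -0.20 ± 0.31 and an adjusted p of 0.952. For Ptbp1 the numbered libraries went together, with library 1 high in both groups. Sfpq was at 638, 867 and 992 CPM in B220 HIGH, against 615, 1112 and 1346 CPM in B220 LOW, with a log2 fold change of -0.26 ± 0.37 and an adjusted p of 0.943. Celf2 was at 506, 552 and 483 CPM in B220 HIGH, against 470.3, 511 and 487 CPM in B220 LOW, a log2 fold change of 0.12 ± 0.22 (95% interval -0.38 to 0.61, adjusted p 0.963).

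The SR protein genes pointed lower in B220 HIGH. Srsf1 was at 709.9, 668 and 694 CPM in B220 HIGH, against 753, 924 and 931 CPM in B220 LOW. It was the 1 member of 9 without overlap between the groups, a property of 13.4% of all genes tested, and its log2 fold change was -0.29 ± 0.23 (95% interval -0.81 to 0.23, adjusted p 0.873). Srsf3 was at 234, 418 and 488 CPM in B220 HIGH, against 341, 556 and 633 CPM in B220 LOW, with a log2 fold change of -0.37 ± 0.39 and an adjusted p of 0.923. Srsf7 was at 427, 584 and 590.5 CPM in B220 HIGH, against 505, 739.7 and 874 CPM in B220 LOW, with a log2 fold change of -0.36 ± 0.32 and an adjusted p of 0.893. For both genes library 1 was the lowest of its group in B220 HIGH and in B220 LOW. With the replicate block their log2 fold changes were -0.40 ± 0.14 and -0.34 ± 0.14, with adjusted p of 0.315 and 0.383 (unadjusted 0.0227 and 0.0405).

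By numbered pairs, 5 of 9 members were lower in B220 HIGH in all 3 pairs, namely Hnrnpll, Ptbp1, Srsf1, Srsf3 and Srsf7, whereas 23.5% of 9351 genes with a mean of at least 10 CPM were. Among the SR proteins the count was 9 of 10 by CPM and 8 of 10 after TMM scaling, and among the 10 other factors reported on CD45 exons it was 7 of 10 under both scalings. After TMM scaling the share over the same 9351 genes was 20.8%. Srsf6 was at 355, 374 and 309 CPM in B220 HIGH, against 429.8, 564 and 534 CPM in B220 LOW, without overlap (log2 fold change -0.52 ± 0.24, adjusted p 0.727). Srsf10 averaged 89.3 ± 12.3 CPM in B220 HIGH and 130.3 ± 8.50 CPM in B220 LOW (SD, n = 3 each), also without overlap (log2 fold change -0.50 ± 0.22, adjusted p 0.711 from edgeR). No gene of these lists passed the test, with or without the replicate block, nor with DESeq2 or limma-voom. All 10 of the other factors had a negative log2 fold change, between -0.50 and -0.05, as did 6526 of the 12564 genes tested.

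CD45 substrates, partners and ligands pointed the other way, with a positive log2 fold change for 15 of 17 tested and a median of 0.67. Over all genes tested 6038 of 12564 were positive. None of the list was called by edgeR or limma-voom (4 at an unadjusted p under 0.05, 2 called by DESeq2). Cd22, whose levels are given above with the B lineage markers it belongs to, had the largest difference, with a log2 fold change of 5.26 ± 1.29 (unadjusted p 0.00281, adjusted p 0.363). Its groups did not overlap, and it was 33.6, 18.8 and 114 times as high in B220 HIGH in the numbered pairs. Lgals3 was at 198, 439 and 558 CPM in B220 HIGH, against 96.7, 68.7 and 56.6 CPM in B220 LOW, without overlap, and its log2 fold change of 2.54 ± 0.43 had an adjusted p of 0.132. Jak2, a cytokine receptor kinase on which CD45 acts, was at 129, 245 and 219.8 CPM in B220 HIGH, against 98.4, 70.7 and 104 CPM in B220 LOW, also without overlap (log2 fold change 1.19 ± 0.34, adjusted p 0.412). Lyn was at 263, 644 and 525 CPM in B220 HIGH, against 208, 297 and 390.5 CPM in B220 LOW, with an adjusted p of 0.804.

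The genes whose levels most resembled those of Ptprc over the 12 libraries were not its splicing regulators. By Pearson's correlation of log2(CPM + 1) among 9476 genes with a mean of at least 10 CPM, the 5 closest were Tle3 (0.956), Arhgap30 (0.945), Fkbp15 (0.937), Atp7a (0.937) and Nckap1l (0.935). Tle3 encodes a transcriptional corepressor and Nckap1l a blood cell protein of the actin-regulating WAVE complex. Tle3 was at 72.5, 38.9 and 82.4 CPM in iMLL-ENL total, 48.9, 60.2 and 38.1 in wt LSK, 37.2, 39.8 and 39.4 in B220 HIGH and 47.3, 14.4 and 26.1 in B220 LOW, so it shared with Ptprc its lowest library, B220 LOW library 2. The member most like Ptprc was Ptbp1, with 0.531 and rank 1112, whereas with TMM scaling it was Celf2, with 0.488 against 0.446 for Ptbp1. By Spearman's rank correlation the gap was smaller, with 0.720 for Ptbp1 against 0.762 to 0.944 for the 5 genes named. These correlations describe 12 libraries of 4 groups in 2 tables, and the points share library depth and table.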

How the data were processed

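RNA was extracted with a PicoPure kit and made into unstranded NuGen Ovation libraries, per the labels' protocols. The authors deposited 2 tables of raw counts per gene with NCBI gene identifiers and a gene width in bases (another measure, deposited beside the counts). Per the submitters' processing notes, edgeR was used and the builds were GRCm38 and mm10. The aligner and counter were not given in the sources used here. The deposited CPM tables were not used. Of 24028 identifiers, 23968 matched RefSeq annotation of GRCm38.p6, which gave symbols and overlaps; exons came from GENCODE M21.

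Each table was fitted on its own in edgeR 4.0.16 (R 4.3.3) with filterByExpr (minimum count 10), TMM factors, a robust quasi-likelihood fit and two-sided tests, after a check on simulated counts. Alternatives were DESeq2 1.42.0, limma-voom (limma 3.58.1), other scalings, no filter, a fold threshold of 1.5, a replicate block and leaving out each library. Libraries totalled 10921521 to 22706882 counts, and intervals of ratios of counts cover counting error only. Deviations of same-numbered B220 HIGH and B220 LOW libraries correlated at 0.397, 0.198 and 0.307 for numbers 1 to 3, which pairs them from the data and not from the labels.

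The members and lists were chosen with earlier results of these data known. Named genes are the members, the other CD45 exon factors, up to 4 called genes per list with the smallest p, the 5 genes most like Ptprc, defining markers and genes overlapping a member; Lyn, Fgr, Yes1, Blk, Ptprcap, Csk, Jak2, Cd22, Adgre1, Srsf6, Srsf12, Ptpro, Ptprm, Ptprf and the Lgals3 values of the second comparison were named after their values were seen. Trac and Hba-a1 had no row matched. Some genes of the lists are not reported here.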

Additional observations from a re-analysis of the deposited data

How the results depend on the processing

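Between iMLL-ENL total and wt LSK, 4221 genes were called in the main test and 2636 to 4528 on leaving out 1 library; the lowest counts came without wt LSK library 3 (2636) and library 1 (2658). The number of members called was 1 in the main test, 0 with DESeq2, RLE factors, no filter or a fold of at least 1.5, and 0 to 1 on leaving out 1 library. With totals alone 1 member was called, but it was Srsf7 (log2 fold change -0.57) in place of Hnrnpll (0.42, adjusted p 0.0998). Between B220 HIGH and B220 LOW, 0 genes were called in the main test, 302 with DESeq2, 22 with no filter, and 0 to 96 on leaving out 1 library (96 without B220 HIGH library 1, 3 without B220 LOW library 1). No member was called there under any of the 13 alternatives. The cause of these shifts was not tested.

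With the replicate block, B220 HIGH against B220 LOW gave 79 calls, and the block changed no member's call. That block rests on a pairing read from the data, which the labels do not state. Same-numbered iMLL-ENL total and wt LSK libraries correlated at 0.0164, 0.160 and -0.0358, so there the numbers do not pair the libraries, and the replicate block gave 4048 calls.

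Over all 13 alternatives, directions turned for 5 of the 18 member values, none of them called. Between iMLL-ENL total and wt LSK, Ptbp1 ranged from -0.20 to 0.26 and Celf2 from -0.24 to 0.056 on the log2 scale. Between B220 HIGH and B220 LOW, Hnrnpl ranged from -0.31 to 0.22, Ptbp1 from -0.50 to 0.048 and Sfpq from -0.56 to 0.061. Of the 5 genes most like Ptprc, 1 stayed among the first 5 with Spearman's correlation and 4 with TMM scaling over all 12 libraries. The counts do not resolve isoforms, and with 3 libraries a group the 95% intervals of 5 members in the second comparison reach beyond a doubling or halving.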
